A study of Homo sapiens with 4 samples.

Results

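The genes described here encode the subunits of the 5 respiratory complexes of the mitochondrial inner membrane. They were taken by symbol from the RefSeq protein-coding genes of GRCh38 (the NDUFA, NDUFB, NDUFC, NDUFS and NDUFV genes of complex I without the NDUFAF assembly factors, the 4 SDH genes of complex II, the UQCR genes and CYC1 of complex III, the COX4 to COX8 genes of complex IV and the ATP5 genes of complex V), which gave 89 of 20033 genes. A gene was counted as listed in a library when a deposited summit lay within 1000 bp of either of its ends, and 28 of the 89 were listed in at least 1 library. The read-through genes NDUFC2-KCTD14 and ATP5MF-PTCD1 share sequence with NDUFC2 and ATP5MF, and none of these 4 was listed. The ATP5 symbols also take in ATP5IF1, an inhibitor of the ATP synthase and not a subunit, which was not listed either.

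CUT&Tag libraries were made from 22RV1, a human prostate cancer cell line grown in RPMI-1640 with fetal bovine serum. The 4 libraries were cells given PD0332991 (palbociclib), an inhibitor of the cell-cycle kinases CDK4 and CDK6, the control of that treatment, cells given an siRNA against RB, the retinoblastoma protein, and the control of that siRNA. Each group was 1 library, so nothing below is checked by replicates, and all intervals cover counting error only. The labels describe fixed, sonicated chromatin with input material. Antibody target, dose and treatment time are not given in the sources used here.

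Complex I takes electrons from NADH and complex II takes them from succinate. Complex III passes them by cytochrome c to complex IV, which reduces oxygen, and complex V, the ATP synthase, uses the proton gradient built on the way. Most subunits are encoded in the nucleus and must be made in step with the few encoded in mitochondrial DNA. Their promoters are known for sites of NRF1, of the ETS factor GABP, of YY1 and of CREB, and prostate epithelium is known for a shift towards oxidative metabolism when it becomes malignant.

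Levels are given in FPM, the number of fragments at a summit per 1000000 fragments of the library. The libraries held 1229387 fragments in the palbociclib control, 954671 under palbociclib, 1739836 in the siRNA control and 1211642 with RB siRNA, so that 1 fragment is worth 0.813, 1.05, 0.575 and 0.825 FPM. Each deposited interval lists only its highest summit, and the intervals have median widths of 189, 557, 180 and 718 kb in that order. A lower summit in the same interval is therefore not listed, and a gene without a summit is not shown to lack signal. As a check of the cell type, 12 luminal prostate markers had 0, 2, 1 and 1 genes listed in the same order, FOXA1 in 3 of the libraries, 6 neuroendocrine markers had 1, 0, 0 and 0, and 12 markers of blood, endothelium and liver had 0, 1, 0 and 0. With so few listed, the lists do not test the labelled cell type, and the level of the RB protein after siRNA was not measured here.

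The stretches before the start of 4 genes are shown, from the 6 subunit genes listed in the most libraries, with ties taken by mean level. ATP5PF is left out because its listed starts lie inside its own gene, and NDUFA11 because no searched motif was found before its start. Capitals mark matches to TGACGTCA, the site of CREB and ATF factors (CRE), or to GGGCGG and its complement CCGCCC, the site of Sp factors. The stretches run 5′ to 3′ on the strand of the gene and end 1 base before its start: ATP5MC1 on the plus strand at chr17:48892537-48892786, NDUFB2 on the plus strand at chr7:140696458-140696707, COX5A on the minus strand at chr15:74938074-74938323 and ATP5MK on the minus strand at chr10:103396476-103396625 (RefSeq, GRCh38.p14). The last one stops at the start of PDCD11, which is read in the other direction.
ATP5MC1: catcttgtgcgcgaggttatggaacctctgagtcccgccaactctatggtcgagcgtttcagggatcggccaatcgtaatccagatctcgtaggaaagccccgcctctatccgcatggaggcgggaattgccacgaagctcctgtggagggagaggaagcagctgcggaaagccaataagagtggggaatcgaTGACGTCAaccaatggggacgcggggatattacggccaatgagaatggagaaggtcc
NDUFB2: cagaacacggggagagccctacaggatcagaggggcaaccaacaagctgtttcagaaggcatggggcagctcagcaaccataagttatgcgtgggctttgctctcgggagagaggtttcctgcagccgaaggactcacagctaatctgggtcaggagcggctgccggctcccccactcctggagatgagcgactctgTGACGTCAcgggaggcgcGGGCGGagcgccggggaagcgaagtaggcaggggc
COX5A: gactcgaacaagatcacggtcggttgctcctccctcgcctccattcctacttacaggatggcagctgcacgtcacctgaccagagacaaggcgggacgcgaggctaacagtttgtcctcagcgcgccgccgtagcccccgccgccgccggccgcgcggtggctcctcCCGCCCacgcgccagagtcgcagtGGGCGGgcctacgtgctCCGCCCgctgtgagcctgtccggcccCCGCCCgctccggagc
ATP5MK: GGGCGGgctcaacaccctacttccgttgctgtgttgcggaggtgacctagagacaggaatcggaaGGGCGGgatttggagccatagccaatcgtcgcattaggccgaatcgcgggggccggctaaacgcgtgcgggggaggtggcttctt

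In the controls, subunit genes were listed about as often as other coding genes. In the palbociclib control 17 of 89 were listed (19.1%), against 16.8% of all coding genes, and in the siRNA control 17 of 89 (19.1%), against 17.3%. Under palbociclib 3 of 89 were listed (3.37%), against 7.73% of all coding genes, and with RB siRNA 5 of 89 (5.62%), against 6.63%. The lists also differ in size, with 9720, 3206, 10412 and 2553 intervals from palbociclib control to RB siRNA. Their backgrounds held 34562, 9592, 36250 and 7641 read ends. The counts of treated and control libraries are therefore not on the same footing, and a treatment effect was not tested. The controls shared 8 listed genes, which is 47.1% of the 17 of either control, and each had 9 that the other did not list. Of all coding genes listed in the siRNA control, 52.6% were listed in the palbociclib control too. A further 2 subunit genes, NDUFS6 and COX4I1, were listed in the palbociclib library alone. No gene was listed in all 4 libraries: 4 were listed in 3, 6 in 2 and 18 in 1. The shares of all coding genes listed under palbociclib alone, or in each number of libraries, are not given here. These counts therefore do not set subunit genes apart. At a −log10 q of at least 1.3, NDUFA11 in the palbociclib control was the 1 summit that stayed. The share of all coding genes left at that threshold is not given here, so this count does not set subunit genes apart.

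**Figure D1:**
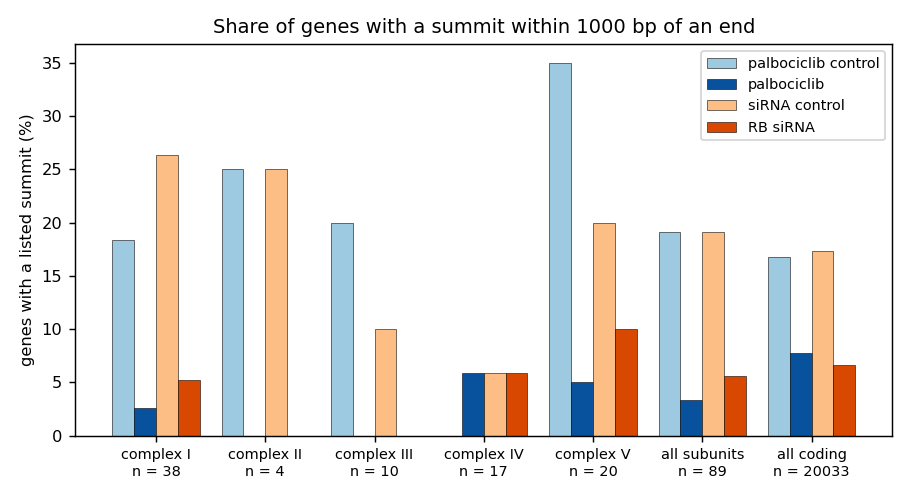
Share of genes (percent, vertical axis) with a listed summit within 1000 bp of an end, for each respiratory complex, for all 89 subunit genes and for all 20033 coding genes; each bar is 1 library, so there are no error bars. Complex V in the palbociclib control is the tallest bar (35%), and complex IV has 1 gene or none listed in each library.

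By complex, the ATP synthase genes had 7 of 20 listed in the palbociclib control (35%), 1 under palbociclib, 4 in the siRNA control and 2 with RB siRNA. Complex I had 7, 1, 10 and 2 of 38 in the same order. Complex IV, cytochrome c oxidase, had 0, 1, 1 and 1 of 17. Complex III had 2, 0, 1 and 0 of 10, and complex II 1, 0, 1 and 0 of 4. No difference between complexes was tested, and at these sizes 1 gene moves the share of complex III by 10 percentage points.

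The summits lay at gene starts. All 25 listed genes with a start in the promoter table had their summit at the 5′ end, and the other 3 (NDUFS5, NDUFB5, NDUFB9) have no strand there. Of 39 summits with a start, 17 lay within 100 bp and 33 within 300 bp of the nearest start of their gene, with a median distance of 142 bp, and 29 lay upstream. The median distance to a coding start was 142, 65, 81.5 and 53 bp for subunit gene summits from palbociclib control to RB siRNA, against 178, 184, 180 and 182 bp for all gene-end summits. Since 16 of the 28 genes share their summit with the end of another coding gene, a level there cannot be assigned to either gene of the pair.

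**Figure D2:**
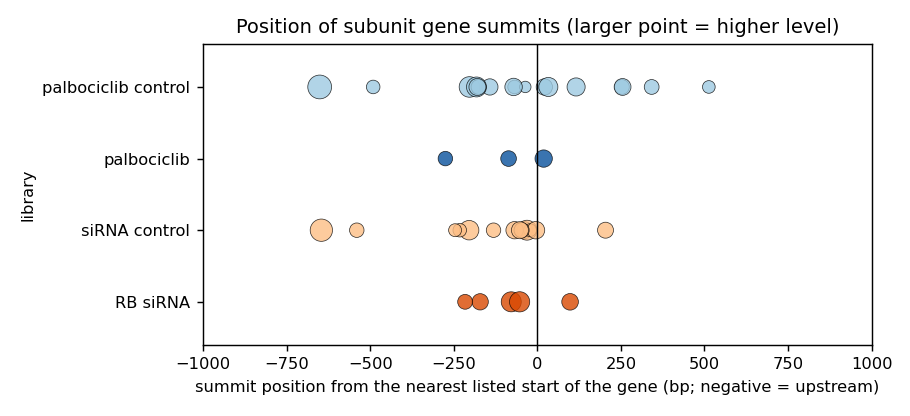
Position of each summit (bp from the nearest listed start of its gene, negative upstream) in the 4 libraries, with larger points for higher FPM (area on a log2 scale). Most of the 39 points fall within 300 bp of the start, and the largest, of NDUFA11, lies 651 and 646 bp upstream in the controls.

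Levels of subunit gene summits lay near those of all gene-end summits in the controls and below them in the treated libraries. The median over subunit gene summits was 8.95 FPM in the palbociclib control, 7.33 under palbociclib, 6.32 in the siRNA control and 9.9 with RB siRNA, against 9.76, 16.8, 7.47 and 14.9 for all gene-end summits. In the treated libraries these medians rest on 3 and 5 summits. Across the 28 genes 21 reached 5 FPM in at least 1 library. By library, 13 of 17, 3 of 3, 12 of 17 and 5 of 5 subunit gene summits did so, from palbociclib control to RB siRNA. Of all gene-end summits 74.4%, 91.2%, 67.5% and 86.5% did, so this count does not set subunit genes apart.

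**Figure D3:**
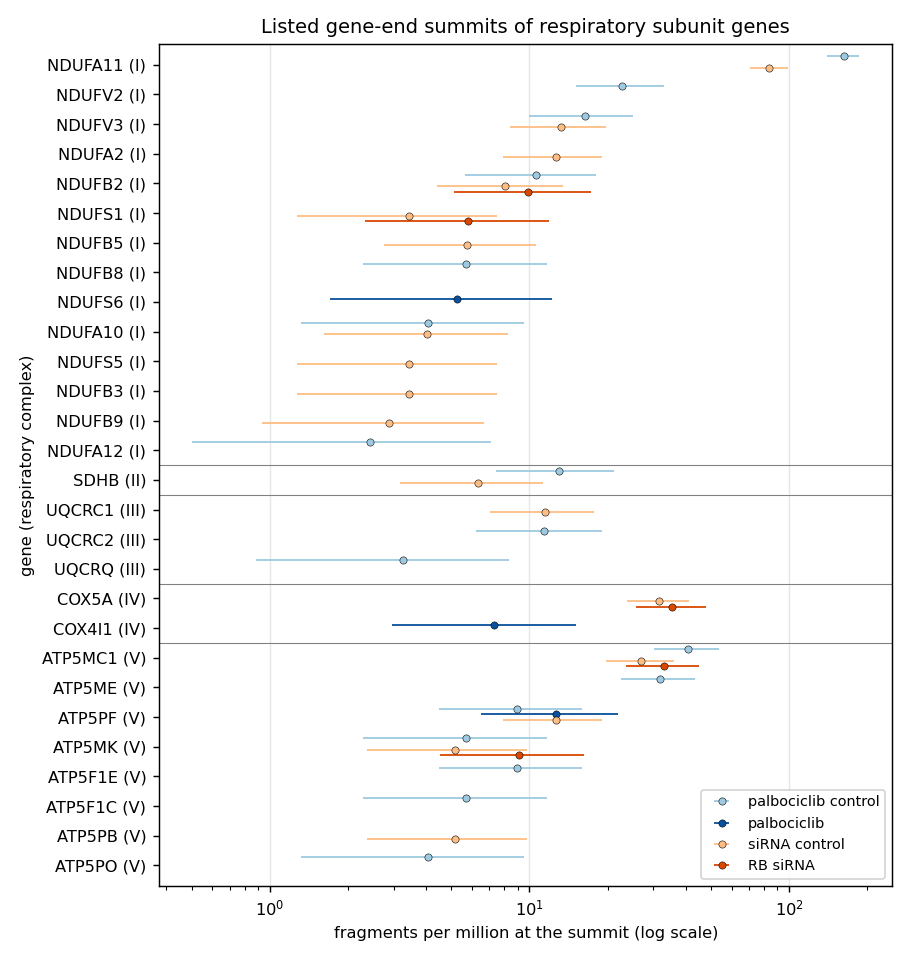
Level of every listed summit of the 28 genes (FPM, log axis), grouped by complex, with exact Poisson 95% intervals; a missing point means that no summit was listed, not a level of 0. NDUFA11 stands highest (162 and 83.9 FPM in the controls), and for every other gene listed more than once the intervals overlap.

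Complex I gave the highest level. NDUFA11, an accessory subunit of the membrane arm, had 162 FPM in the palbociclib control (95% interval 140 to 186, 199 fragments) and 83.9 in the siRNA control (70.9 to 98.7, 146 fragments). The summits lay on chromosome 19 at 5904441 and 5904436, which is 651 and 646 bp before the start of NDUFA11 and nearer to that of VMAC (431 and 436 bp). The authors' fold there was 3.79 and 2.52. The intervals of the 2 levels do not overlap, and the gene was not listed in the treated libraries. At all other subunit gene summits, of every complex, the authors' fold was 1.02 to 1.7 and the −log10 q was 0. The fold carries a pseudocount of 1, to which 1 fragment adds about 0.0141, 0.00502, 0.0104 and 0.00315 from palbociclib control to RB siRNA. ATP5MC1 thus had a fold of 1.49 at 47 fragments in the siRNA control and 1.13 at 40 with RB siRNA. A fold near 1 here does not measure how far a summit stands above background.

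The other complex I genes had 2.44 to 22.8 FPM, where the median of all gene-end summits was 9.76 in the palbociclib control and 7.47 in the siRNA control. NDUFB2, an accessory subunit of the same arm, was listed in 3 libraries, with 10.6 FPM in the palbociclib control (5.63 to 18.1), 8.05 in the siRNA control (4.4 to 13.5) and 9.9 with RB siRNA (5.12 to 17.3). Its summits lay 255, 204 and 98 bp after the start, next to the antisense gene NDUFB2-AS1. NDUFV3, of the NADH-oxidising module, had 16.3 FPM in the palbociclib control and 13.2 in the siRNA control, at an end shared with WDR4. These levels lay well inside each other's intervals. NDUFV2, a core iron-sulfur subunit of that module, had 22.8 FPM in the palbociclib control (15.1 to 32.9), 33 bp from its start. NDUFA2 had 12.6 FPM in the siRNA control, at an end shared with IK and TMCO6. NDUFS1, which carries further iron-sulfur clusters, had 3.45 FPM in the siRNA control and 5.78 with RB siRNA, at an end shared with EEF1B2. NDUFA10 had 4.07 and 4.02 FPM in the palbociclib and siRNA controls, at summits 259 bp apart. The remaining accessory subunits were each listed once, at 3 to 10 fragments. In the siRNA control NDUFB5 had 5.75 FPM, NDUFS5 and NDUFB3 had 3.45 each and NDUFB9 had 2.87. In the palbociclib control NDUFB8 had 5.69 FPM and NDUFA12 had 2.44, and NDUFS6 had 5.24 under palbociclib. The ends of NDUFB5, NDUFB3, NDUFB9 and NDUFS6 are shared with MRPL47, HYCC2, TATDN1 and MRPL36.

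Complexes II and III were listed in controls alone. Of all coding genes, only 7.73% were listed under palbociclib and 6.63% with RB siRNA. At each gene named here both treated libraries had a higher summit elsewhere in the same interval, so its absence there does not show a loss. SDHB, the iron-sulfur subunit of succinate dehydrogenase, had 13.0 FPM in the palbociclib control (7.44 to 21.1) and 6.32 in the siRNA control (3.16 to 11.3), 71 and 47 bp before its start. UQCRC1, a core subunit of complex III, had 11.5 FPM in the siRNA control, and its partner UQCRC2 had 11.4 in the palbociclib control. UQCRQ, a small subunit, had 3.25 FPM in the palbociclib control, at an end shared with GDF9.

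Complex IV had 2 listed genes. COX5A, a subunit on the matrix side, had 31.6 FPM in the siRNA control (23.8 to 41.1) and 35.5 with RB siRNA (25.7 to 47.8), 31 and 53 bp before its start, inside the stretch shown above. COX4I1, the common form of subunit 4, had 7.33 FPM under palbociclib, at an end shared with EMC8.

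Complex V held 3 of the 4 genes listed in 3 libraries. ATP5MC1, which encodes the c subunit of the rotor ring, had 40.7 FPM in the palbociclib control (30.2 to 53.6), 27 in the siRNA control (19.8 to 35.9) and 33.0 with RB siRNA (23.6 to 45), and shares its end with no other coding gene. Its summits lay 203, 204 and 78 bp before the start, and its CRE match starts 57 bases before it. ATP5PF, coupling factor 6 of the stalk, was the 1 subunit gene listed in both the palbociclib library and its control, with 8.95 FPM in the control (4.47 to 16), 12.6 under palbociclib (6.49 to 22) and 12.6 in the siRNA control (7.92 to 19.1). Its end is shared with GABPA, which encodes the ETS subunit of GABP. ATP5MK, a small subunit of the membrane part, had 5.69 FPM in the palbociclib control, 5.17 in the siRNA control and 9.08 with RB siRNA, and these summits lay 25, 20 and 20 bp from the start of PDCD11. ATP5ME, subunit e, had 31.7 FPM in the palbociclib control (22.6 to 43.4), at an end shared with MYL5. ATP5F1E and ATP5F1C, of the central stalk, had 8.95 and 5.69 FPM in the palbociclib control, and ATP5PO, of the peripheral stalk, had 4.07. ATP5PB, also of the peripheral stalk, had 5.17 FPM in the siRNA control, 540 bp before its start and 332 bp from that of WDR77. The ends of ATP5F1E and ATP5F1C are shared with PRELID3B and KIN.

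Under palbociclib, ATP5PF was the 1 of 17 subunit gene summits of the control with a partner (5.88%), against 27% of all gene-end summits of that control. Partners are mutually nearest summits within 250 bp. Its log2 ratio was 0.49 (95% interval -0.82 to 1.81, 12 against 11 fragments), and that interval includes the median of 0.22 over the 1103 shared summits whose geometric mean reached 5 FPM. Of those 1103 summits 14% differed from the median beyond counting error, and of the subunit genes 0 of 1. With gene ends of 500 bp ATP5PF is not counted, and with 2500 bp 3 subunit genes had a partner. The shares of all gene-end summits at these widths are not given here.

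The 16 control summits without a partner do not measure loss under palbociclib. For 14 of them the palbociclib interval at that place had its summit elsewhere at the same level or higher, such as 273 FPM for ATP5ME (57.4 kb away), 208 for UQCRC2 and 193 for NDUFA11. A summit as high as in the control would not have been listed there. The summit elsewhere is still an upper limit, close to the control level for genes such as NDUFA11 (log2 ratio 0.25, -0.05 to 0.55) and NDUFV2 (0.08, -0.78 to 0.93). In the other 2 genes this limit lay below the control level. For ATP5MC1 it was 38.8 FPM against 40.7 in the control (log2 ratio -0.07, -0.72 to 0.57), and for ATP5F1C 4.19 against 5.69 (-0.44, -2.66 to 1.53). Both limits lie within counting error of the control. In the other direction, the control had at most 4.88 FPM at COX4I1, against 7.33 under palbociclib, which is also within counting error, and at NDUFS6 the control's own summit of 4.88 FPM lay 1212 bp away from that under palbociclib (5.24).

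With RB siRNA, 5 of 17 subunit gene summits of the siRNA control had a partner (29.4%), against 23.7% of all its gene-end summits. COX5A had a log2 ratio of 0.17 (-0.44 to 0.77), ATP5MC1 of 0.29 (-0.36 to 0.93) and NDUFB2 of 0.30 (-0.94 to 1.52). ATP5MK had 0.81 (-0.60 to 2.26) and NDUFS1, which lies below 5 FPM on average, 0.74 (-1.05 to 2.59). The 5 ratios were above 0, with a median of 0.30, and the median of all 973 shared summits was 0.43, so that COX5A, ATP5MC1 and NDUFB2 lay below it. Each interval included that median and also 0, while 10.9% of the 973 summits differed from the median beyond counting error. For COX5A and ATP5MC1 the intervals leave room for at most 0.77 and 0.93 on the log2 scale upwards. The other 12 control summits lay in RB siRNA intervals with a summit as high or higher elsewhere, among them NDUFA11 (333 FPM, 1966 kb away). With partners taken within 100 bp, 2 genes were shared, and with gene ends of 2500 bp 8, again without the shares of all gene-end summits.

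**Figure D4:**
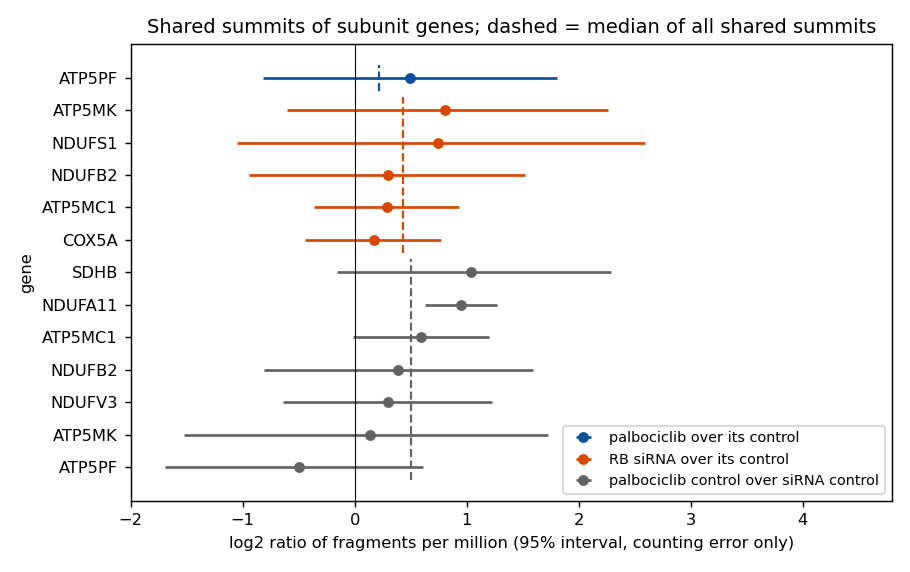
Log2 ratio of FPM at each shared summit of a subunit gene (horizontal axis) with its exact 95% interval, for the 3 comparisons; dashed lines mark the median of all shared summits in each. The interval of NDUFA11 between the controls (0.63 to 1.27) is the 1 of 13 that misses its dashed line.

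Between the controls, 7 of 17 subunit gene summits of the siRNA control had a partner in the palbociclib control (41.2%), against 43.6% of all its gene-end summits. NDUFA11 had a log2 ratio of 0.95 (0.63 to 1.27) of palbociclib control over siRNA control and lay above the median of 0.50 over 1665 shared summits. The ratios of SDHB (1.04, -0.16 to 2.29), ATP5MC1 (0.59, -0.01 to 1.2), NDUFB2 (0.39), NDUFV3 (0.30), ATP5MK (0.14) and ATP5PF (-0.50, -1.69 to 0.61) had intervals that include the median. Thus 1 of 7 differed beyond counting error, against 17.2% of all 1665. Without a partner, UQCRC2 had 11.4 FPM in the palbociclib control against at most 4.02 in the siRNA control (log2 ratio of the latter over the former -1.50, -3.05 to -0.10). That interval excludes 0 but includes the median shift between these libraries, which is 0.50 in the opposite sense. COX5A in the siRNA control lay where the palbociclib control had 128 FPM 514 kb away. 

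For the 61 genes not listed in any library, the lists give upper limits. The lowest were 1.63 FPM for NDUFS4, a complex I subunit, 1.72 for COX7A2 and 2.3 each for COX7B2, COX7C and NDUFA5. Such a limit is a count of 2 to 4 fragments and holds for the 1 library with the lowest summit over the 5′ end of the gene. Where no strand is known, the end with the lower coordinate was used. A library without an interval at that place gives no limit. Most limits are wide: over subunit genes without a summit, the median of the summit listed elsewhere in the same interval was 21.1 FPM in the palbociclib control, 39.8 under palbociclib, 13.8 in the siRNA control and 34.7 with RB siRNA.

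**Figure D5:**
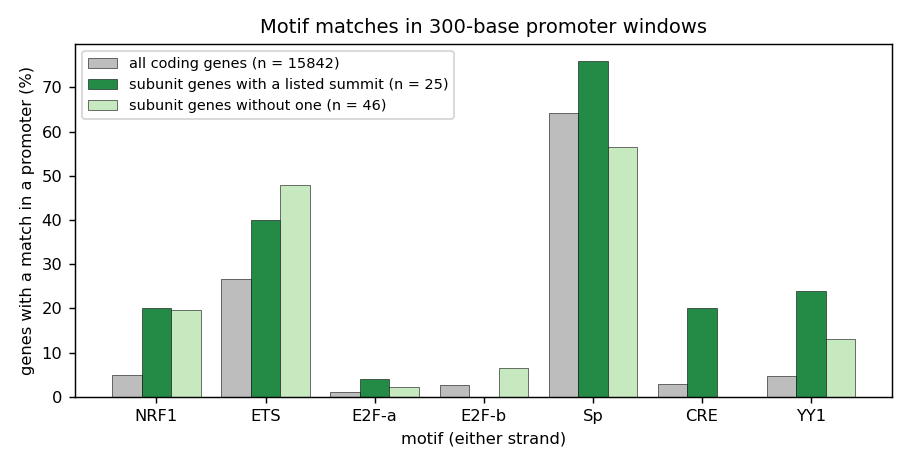
Share of genes (percent) with each motif on either strand of a 300-base promoter window, for all 15842 coding genes in the promoter table, the 25 subunit genes with a listed summit and the 46 without one. E2F-a is TTTGGCGC and E2F-b is TTTCCCGC. CRE matches are at 20% of listed and 0% of unlisted subunit genes, while NRF1 matches are at 20% and 19.6%.

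The promoter windows (250 bases before to 50 after a start) of 71 subunit genes were searched on both strands for fixed strings, none of which contains another. GCGCATGC (NRF1) was found in 14 of 71 genes (19.7%), against 4.89% of 15842 coding genes in the table and 3.74% of their 22198 windows. CCGGAA, the core of ETS sites, was in 32 (45.1%, against 26.6% and 21.2%), and AAGATGGC (YY1) in 12 (16.9%, against 4.66% and 3.53%). GGGCGG (Sp) was in 45 (63.4%, against 64.3% and 56.3%), and the E2F strings TTTGGCGC and TTTCCCGC in 2 and 3 (2.82%, against 1.09% and 0.815%, and 4.23%, against 2.65% and 1.99%). A match is a string of letters and not a bound site.

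NRF1 matches were in 5 of 25 listed and 9 of 46 unlisted subunit genes, and ETS matches in 10 of 25 and 22 of 46. Sp matches were in 19 of 25 and 26 of 46, and YY1 matches in 6 of 25 and 6 of 46. CRE matches were in listed genes alone: TGACGTCA was in 5 of 71 subunit genes (7.04%), against 3% of coding genes and 2.26% of windows, and these were 5 of 25 listed genes (20%) and 0 of 46 unlisted. The 5 genes are ATP5MC1, ATP5ME, NDUFA10, NDUFB2 and SDHB, with the match 57, 158, 48, 53 and 4 bases before a start. The palbociclib control listed 5 of them, the siRNA control 4, RB siRNA 2 and palbociclib 0. Among all coding genes with that match, 24.4%, 27.4%, 8.84% and 13.1% were listed in that order of libraries. The shares of all genes in the table were 17.7%, 18%, 6.9% and 8.08%. This rise was not particular to CRE, since genes with each other searched motif were also listed more often than all genes in each library. For NRF1 the shares were 25.9%, 27.6%, 10.5% and 12.1% in the same order. CRE was singled out after its counts were seen, and its difference between listed and unlisted subunit genes was not tested.

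Other genes of the pathway were described from lists of the same kind. Of 57 assembly factors, which build the complexes without staying in them, 10 were listed in the palbociclib control (17.5%), 7 under palbociclib (12.3%), 10 in the siRNA control (17.5%) and 10 with RB siRNA (17.5%), against 16.8%, 7.73%, 17.3% and 6.63% of all coding genes. COX17, a copper chaperone of complex IV, had 37.7 FPM under palbociclib, 20.1 in the siRNA control and 41.3 with RB siRNA. COX14, another assembly factor of that complex, had 40.9, 20.1 and 26.4 in the same libraries. ECSIT, of complex I assembly, had 85.9 FPM under palbociclib and was not listed in the other 3. CMC2 was listed in all 4, with 23.6, 32.5, 11.5 and 21.5 FPM from palbociclib control to RB siRNA.

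Of 18 genes of the citric acid cycle and pyruvate dehydrogenase, which feed the chain with electrons, 10 were listed in each control (55.6%), 3 under palbociclib (16.7%) and 2 with RB siRNA (11.1%). The shares of all coding genes were 16.8% and 17.3% in the controls. They were 7.73% and 6.63% in the treated libraries, so fewer coding genes in total were listed there. The dehydrogenase gene OGDH had 125 FPM in the palbociclib control, 63.2 in the siRNA control and 152 with RB siRNA. PDHX, of pyruvate dehydrogenase, had 43.1, 24.1 and 35.5 FPM in those libraries. Both genes stood higher than every subunit gene but NDUFA11 in the palbociclib control.

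Of 16 regulators of nuclear genes for mitochondria, 6, 4, 7 and 3 were listed from palbociclib control to RB siRNA (37.5%, 25%, 43.8% and 18.8%), beside 16.8%, 7.73%, 17.3% and 6.63% of coding genes at large. SP1 was listed in all 4, with 125, 181, 98.9 and 135 FPM, as was YY1, with 26.8, 29.3, 27.6 and 27.2. TFAM, the packaging factor of mitochondrial DNA, had 13.0 FPM in the palbociclib control. TFB2M, which starts transcription of mitochondrial DNA, had 13.8 FPM there, 17.8 in the siRNA control and 16.5 with RB siRNA.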

How the data were processed

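CUT&Tag intervals of 4 libraries were analysed. Reads were handled with bcl2fastq 2.17, Trimmomatic 0.33, Bowtie2 (version given as 2) and MACS2 2.1.0 on hg38, per the submitters' processing notes, which give neither order nor settings. In each deposited list the score is the whole part of 10 times the −log10 p. The authors' fold compares treatment with background at each summit, which also has a deposited −log10 p and a −log10 q. The last deposited column was read as the distance of the summit from the interval start, from the layout of the lists. Both siRNA lists have no name column.

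From each fold and p the background and the whole number of treatment fragments were solved (MACS2 pseudocount 1, Poisson upper tail). Numbers were whole within 0.05 for 99.89% to 100% of summits, and for 100% of those at the genome-wide background, where chance gives 10%. Steps of the local background in an assumed window of 10000 bp gave mean fragment lengths of 382.1, 365.5, 348.5 and 407.6 bp. These are not whole numbers, and neither are these lengths divided by 2 (191.05, 182.74, 174.26 and 203.82), as a single-end extension would be, so the background was read as read ends in pairs. With an assumed genome of 2.7 Gb this gave the library totals. Counting each read end as a fragment would make the totals 2 times larger and all FPM 2 times smaller, and ratios between libraries depend neither on this nor on the genome size. Recovery and calls were tested on simulated data, and the outcome is not reported here.

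Chromosomes 1 to 22, X and Y were used. Summits of 2 libraries were matched when mutually nearest within 250 bp. Ratios carry exact conditional 95% intervals, levels exact Poisson ones, and a summit was called when its interval excluded the median ratio of shared summits of at least 5 FPM. Such calls compare 2 libraries, not conditions. Strands and promoters came from the RefSeq promoter table (71 of 89 genes matched), with its nearest start per gene. All genes with a gene-end summit are named, sequences were considered for the 6 genes listed in the most libraries (ties by mean level), and other lists give counts and up to 4 genes, of which 1 is not reported here. The members and lists were chosen with earlier results of these data known. Python 3.11.15, numpy 2.4.6, pandas 2.3.3, scipy 1.17.1 and matplotlib 3.10.9 were used.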

Additional observations from a re-analysis of the deposited data

How the results depend on the processing

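Each group held 1 library, so no library could be left out. No paired analysis was possible because each group has 1 sample and the numbers tie none of them together. Of 96 values recomputed under other settings, 10 counts moved by more than 1.5 times, and no call of a shared summit changed. Set against library totals in place of the median of shared summits, 6 of 13 ratios changed sign, none of them called. With RB siRNA these were COX5A (-0.27 from the median, 0.17 from totals), ATP5MC1 (-0.15 and 0.29) and NDUFB2 (-0.13 and 0.30). Between the controls they were ATP5MK (-0.36 and 0.14), NDUFV3 (-0.20 and 0.30) and NDUFB2 (-0.11 and 0.39). Asking for a −log10 q of at least 1.3 left 1 listed gene in the palbociclib control and 0 in each of the other 3 libraries. No share of all coding genes at that threshold is given beside these counts. Gene ends of 2500 bp gave 6 listed genes under palbociclib and 8 with RB siRNA. Shared genes under palbociclib numbered 0 with gene ends of 500 bp and 3 with 2500 bp. With RB siRNA they numbered 2 with matching within 100 bp and 8 with gene ends of 2500 bp. No shares of all coding genes or of all gene-end summits at these settings are given beside these counts. The cause of these moves was not tested. The call of NDUFA11 between the controls held with no minimum level, with 10 FPM, against the library totals and against gene-end summits alone. Most subunit gene summits hold 3 to 23 fragments, which sets the width of their counting intervals, and most control summits without a partner in the treated library lay where it listed a higher one elsewhere.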
